A study of Mus musculus with 36 samples.

Results

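Hepatic stellate cells (HSCs) and liver sinusoidal endothelial cells (LSECs) are compared here in how their transcripts answered an injection of diphtheria toxin (DT) 12 h later. The comparison is the HSC response (HSC libraries at 12 h against HSC WT libraries) minus the LSEC response, and it uses 16 of the 36 libraries of the series. These are 4 HSC WT, 4 HSC 12 h, 4 LSEC WT and 4 LSEC 12 h libraries of bulk RNA from C57BL/6 mouse liver. The series describes the WT group as PBS mice and the others as mice taken after DT, and the study uses the toxin to deplete Kupffer cells, which are macrophages that live in the sinusoids. The labels give no genotype, age, sex or time between PBS and sampling. A Kupffer cell depletion model known from this field places the toxin receptor under Clec4f, a gene of mouse Kupffer cells, and the labels do not say whether these mice carried it. Effects of the toxin itself and of losing Kupffer cells cannot be told apart, since every group given toxin is a depletion group. The labels do not say whether libraries with the same number came from the same mouse, and p-values measure the spread between the deposited libraries.

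HSCs are vitamin A-storing mesenchymal cells that wrap the sinusoid from the space of Disse, and LSECs form its fenestrated, scavenging lining. Kupffer cells sit in the lumen and reach through the endothelium to the HSCs, so both cell types touch the macrophage and supply it with signals such as CSF1, BMPs and Notch ligands. Inflammatory cytokines act on such cells through NF-kB, through interferon-activated IRF factors, and through STAT3, each of which turns on a known set of genes.

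The 16 libraries held 25731066 to 31734631 gene counts, and 4.90 to 7.43% of counts lay in no gene. Levels are CPM (counts scaled to a common library size) with TMM scaling over the 16 libraries, and the 4 values of a group are given in the order of replicates 1 to 4. The labelled cell types matched their markers, and the summed markers of each cell type were lower in it at 12 h. The summed stellate markers went from 81865–105971 CPM in HSC WT to 52807–76973 CPM at 12 h, and the summed LSEC markers from 50009–55419 CPM in LSEC WT to 34899–44673 CPM, with no overlap in either (exact permutation p = 0.0286, adjusted 0.105 over 22 tests). Their part in the results was not tested. The 20 stellate markers were present in LSEC libraries at a median of 0.0370% of their HSC level in WT and 0.0872% at 12 h, and the 19 LSEC markers in HSC libraries at 0.126% and 0.135%. In bulk libraries, fewer cells of a type and less RNA per cell cannot be told apart. Replicate 3 of HSC 12 h lay farthest from its group (mean correlation 0.970 of log CPM with the other 3) and had 896 CPM of hepatocyte markers against 445 to 490 in the others.

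Defining Kupffer cell transcripts were low in WT libraries of both cell types and lower at 12 h. Vsig4, a complement receptor of resident macrophages, averaged 2.37 ± 1.69 CPM in HSC WT and 0.0187 ± 0.0216 at 12 h, and 3.54 ± 1.62 and 0.0276 ± 0.0553 CPM in LSEC (SD, n = 4). Cd5l, a protein secreted by these macrophages, averaged 3.09 ± 2.34 and 0.0470 ± 0.0570 CPM in HSC and 6.33 ± 3.16 and 0.0543 ± 0.0881 CPM in LSEC. Clec4f, a Kupffer cell lectin, averaged 0.615 CPM in HSC WT and 1.52 CPM in LSEC WT, and 0 and 0.0553 CPM at 12 h. Timd4, an efferocytosis receptor, was listed at 0 in all 8 libraries at 12 h. In a single library 3 counts, the upper limit that a count of 0 allows, correspond to 0.0954 to 0.117 CPM by counting error alone, and folds against such levels are imprecise. Of 13 tested Kupffer markers 11 were lower in HSC at 12 h, and in LSEC 4 were lower and 1 was higher. The summed level of the list was mostly that of Slc40a1, the iron exporter ferroportin, which made up 672 of 703 CPM over the tested members in HSC WT. That sum went from 593–890 CPM in HSC WT to 157–528 CPM at 12 h, and from 680–866 CPM to 631–1028 CPM in LSEC. The monocyte and neutrophil sum went from 233–332 CPM to 516–1106 CPM in HSC and from 16.4–23.7 CPM to 19.8–53.8 CPM in LSEC. In HSC, Plac8 alone gave 294 of 299 CPM over the tested members in WT and 763 of 764 CPM at 12 h. The other tested members together went from 4.39 to 1.65 CPM in HSC. Of 9 tested members, 1 was called higher and 2 lower in HSC. The neutrophil genes S100a8, Retnlg and Mpo were at 0 in all 8 HSC libraries. The exact permutation test over libraries gave p = 0.0286 for both of these sums in HSC, the smallest value that 4 against 4 libraries allow, and 0.105 after adjustment over 22 tests. Whether these cells had a part in the results that follow was not tested.

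**Figure D1:**
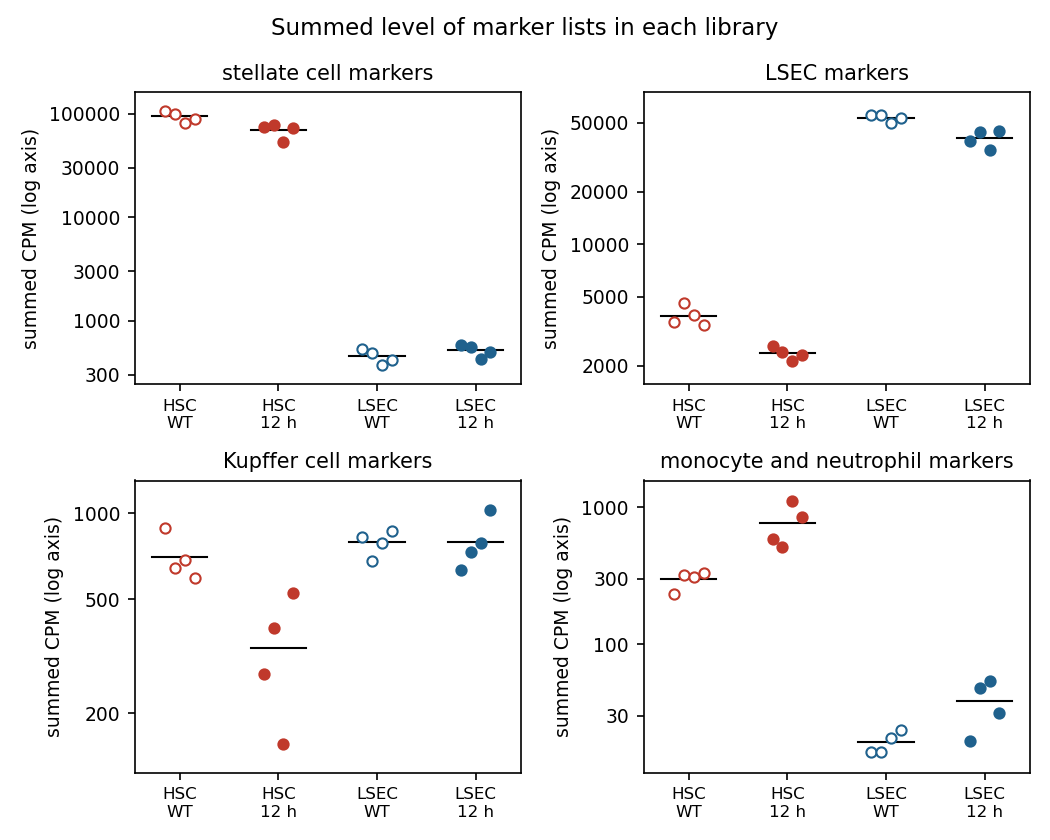
Summed CPM (log axis) of 4 marker lists in each of the 16 libraries; open points are WT, filled points are 12 h after DT, red is HSC, blue is LSEC, and bars are means. The stellate and LSEC lists separated the cell types, and the Kupffer list lay at 157–528 CPM in HSC at 12 h against 593–890 CPM in WT. The monocyte and neutrophil sum was higher at 12 h in HSC, where it was almost all Plac8.

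Of 13194 genes tested, 380 (2.88%) differed between the cell types in their 12 h response, at an adjusted p under 0.05 by the quasi-likelihood test of edgeR, adjusted after Benjamini and Hochberg. The response was higher in HSC for 182 genes (1.38%) and lower for 198 (1.5%). Each cell type on its own moved far more genes. In HSC 3743 genes (28.4%) were called at 12 h, 2004 higher (15.2%) and 1739 lower (13.2%). In LSEC 1844 genes (14%) were called, 1053 higher (7.98%) and 791 lower (6%). Both cell types called 1142 genes, which are 30.5% of the HSC calls and 61.9% of the LSEC calls. Of these, 1095 moved the same way and 47 the opposite way. Across the 10479 genes measured in both cell types (a mean of at least 1 CPM in at least 1 group of each), the responses had a Pearson r of 0.65 and a Spearman rho of 0.61. That is a description across genes, which are not independent.

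A call in one cell type and not in the other is no difference by itself. Of 2601 genes called in HSC and not in LSEC, 216 (8.30%) were called in the difference, and of 702 called in LSEC and not in HSC, 94 (13.4%) were. Among the genes measured in both cell types, 162 (1.23% of all tested) changed in HSC alone, meaning that the difference was called, HSC was called, and LSEC was not called and moved by less than 0.5 on the log2 scale. By the same rule 67 (0.508%) changed in LSEC alone. In some genes of these classes the WT and 12 h libraries of the other cell type did not overlap either, so alone does not mean no change there. Another 36 (0.273%) were called in both in opposite directions, and 21 (0.159%) were called in both in the same direction with a called difference.

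Leaving out single libraries moved these counts. Leaving out HSC WT replicate 2, 3 or 4, or LSEC WT replicate 1 or 3, brought the 380 genes down to between 236 and 252. The 162 genes of HSC alone became 103 to 107 without HSC WT replicate 3 or 4, LSEC WT replicate 3 or LSEC 12 h replicate 4. The 67 genes of LSEC alone became 31 to 42 without any one of the 8 WT libraries or of LSEC 12 h replicates 3 and 4. The 36 opposite genes became 22 or 23 without LSEC WT replicate 1 or 4 or LSEC 12 h replicate 3. The 21 genes of unequal response became 8 to 12 without HSC WT replicate 3, LSEC WT replicate 1, 3 or 4 or LSEC 12 h replicate 4. The LSEC response itself went from 1844 to between 1066 and 1182 genes without LSEC WT replicate 3 or 4 or LSEC 12 h replicate 3. Of the genes described singly, Bmp2, Cxcl12, Srebf2, Plat, Tek, Esam, Tes, F2r, Lamc1, Ctsc, Jam3, Ptgs1 and Lss kept their direction and lost the call of the difference when all 36 libraries entered 1 fit. Bmp2, Cxcl12, Srebf2, Nfkb1, Traf1, Hgf and Lamc1 lost it without replicate 3 of both cell types at 12 h. With a term shared by HSC and LSEC libraries of equal number and time, Bmp2, Nfkb1 and Cxcl12 lost the call and Timp1 gained one.

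**Figure D2:**
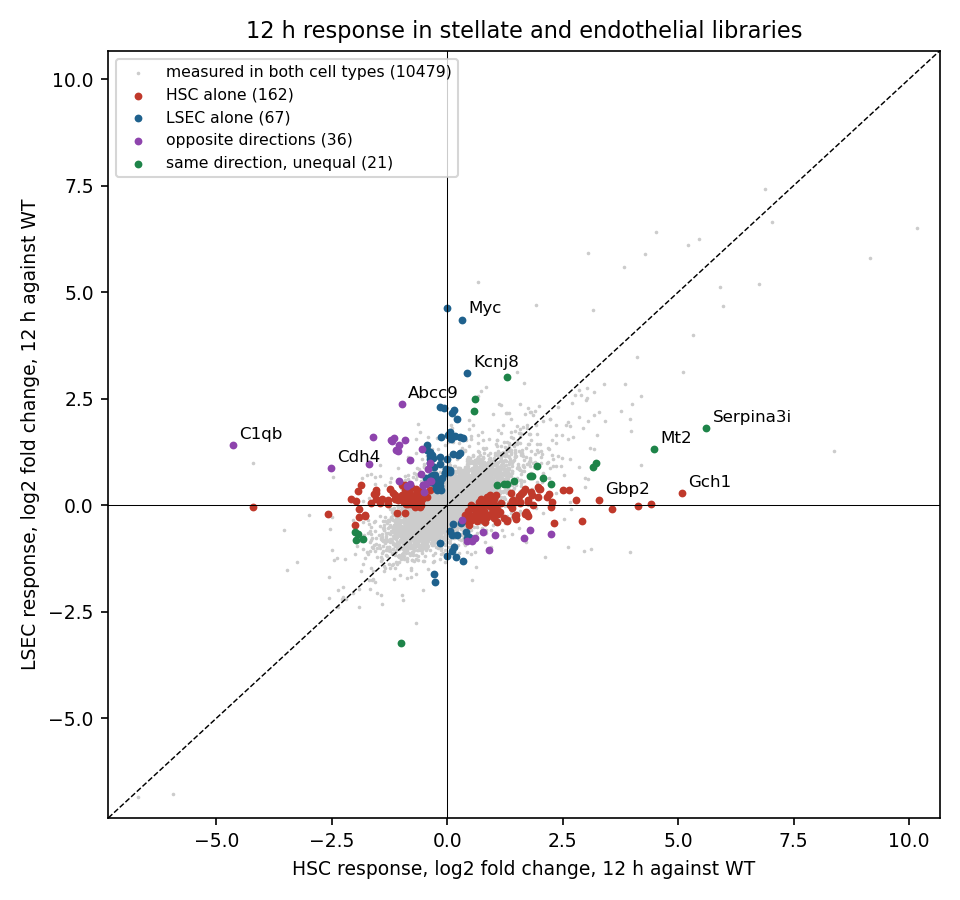
The log2 fold change at 12 h in HSC (x axis) against that in LSEC (y axis) for 10479 genes measured in both cell types. The dashed line marks equal responses, and colours mark the 162 genes of HSC alone, 67 of LSEC alone, 36 opposite and 21 unequal in the same direction. HSC-alone genes lie along the horizontal axis, as the rule for the class requires, with Gch1 and Gbp2 far to the right, and Myc and Kcnj8 lie on the LSEC side.

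Of the 162 genes of HSC alone 102 rose and 60 fell. Gbp2, an interferon-induced GTPase of the antimicrobial defence (chr3:142620663-142638008, mm10), stood at 83.6, 113, 103 and 105 CPM in HSC WT and 1265, 936, 1035 and 723 CPM in HSC 12 h libraries. In LSEC it stood at 84.3, 85.3, 86.4 and 88.2 CPM in WT and 95.1, 74.6, 138 and 63.8 CPM at 12 h. The WT levels of both cell types lay close together, all 4 HSC libraries at 12 h lay above every other library, and the LSEC libraries at 12 h lay on both sides of their WT range. The HSC response was 3.29 ± 0.22 on the log2 scale (± SE, adjusted p = 1.7e-07), the LSEC response 0.11 ± 0.20 (adjusted p = 0.77), and the difference 3.18 ± 0.30 (adjusted p = 2.88e-05). Gbp2 was the only one of 17 tested GBP and IRG GTPases with a called difference, although 14 of the 17 rose in HSC and 5 in LSEC, and DESeq2 called 4 of the 17. Over all 13194 genes tested, edgeR called 380 in the difference and DESeq2 739.

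The core letters of an interferon-stimulated response element (ISRE, an element of interferon-induced promoters) were searched as GAAA, any 2 bases, GAAA on both strands of a 300-base window around each gene's start, from the RefSeq promoter table of GRCm38.p6. Windows were found for 10056 of the 13194 genes, and 3.14% of them held a match. Of the 102 genes that rose in HSC alone, 72 had a window and 5 of these (6.94%) held a match. The Gbp2 match is shown because the HSC and LSEC levels of Gbp2 were close in WT and apart at 12 h, and it was chosen after its values and its match were seen. It lies 59 bases before the RefSeq start, in 30 bases on the plus strand at chr3:142620594-142620623 (GRCm38.p6). GENCODE starts its first exon at 142620602, so the whole match lies in sequence that GENCODE counts as exon. Capitals mark the match, which reads on the minus strand.
Gbp2: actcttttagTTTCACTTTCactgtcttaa

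Gch1 (chr14:47153895-47189413), GTP cyclohydrolase, makes the tetrahydrobiopterin cofactor of nitric oxide synthases. Its HSC libraries held 0.604, 0.471, 1.09 and 0.387 CPM in WT and 29.5, 12.5, 32.9 and 10.4 CPM at 12 h, with no overlap. LSEC libraries held 33.7, 37.9, 37.9 and 33.6 CPM in WT and 43.9, 29.7, 55.4 and 44.7 CPM at 12 h, so 1 HSC library at 12 h was above the lowest LSEC library. The difference was 4.79 ± 0.51 (adjusted p = 6.69e-05). Tnfaip2 (chr12:111442450-111455018), a TNF-induced protein, went from 2.62, 3.08, 4.56 and 4.16 CPM to 108, 46.8, 124 and 28.7 CPM in HSC. In LSEC it was at 28.6, 21.2, 29.6 and 18.6 CPM and at 21.0, 29.9, 24.9 and 24.7 CPM at 12 h. Every HSC library at 12 h was above every HSC WT library, the LSEC groups overlapped, and the difference was 4.38 ± 0.51 (adjusted p = 0.000145).

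Several of the genes that rose in HSC alone were already high in LSEC. Slc7a5 (chr8:121881146-121907686), the large neutral amino acid transporter LAT1, had 2.48, 2.68, 2.42 and 2.93 CPM in HSC WT and 36.0, 19.2, 54.2 and 14.8 CPM in HSC at 12 h. LSEC libraries had 122–209 CPM in WT and 116–172 CPM at 12 h. The HSC rise of 3.56 ± 0.34 (adjusted p = 4.48e-06) left the gene below every LSEC library. Tmem132e, a transmembrane protein, was at 1.31–4.03 CPM in HSC WT and 27.8–70.6 CPM at 12 h, against 461–556 and 481–538 CPM in LSEC. Fas, the death receptor, rose from 1.90–2.75 to 5.44–17.4 CPM in HSC, with a difference of 2.75 ± 0.37 (adjusted p = 0.000726), while LSEC libraries ranged over 80.1–113 CPM and 63.8–79.7 CPM. Those LSEC ranges did not overlap, with a response of -0.43 that was not called (adjusted p = 0.268). Lbp, the lipopolysaccharide-binding acute phase protein, rose from 0.469–0.819 to 1.56–10.6 CPM in HSC and stood at 85.3–122 CPM in LSEC WT and 63.4–92.1 CPM at 12 h.

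The WT level was lower in HSC than in LSEC for 71 of the 102 genes that rose in HSC alone (69.6%), against 5962 of all 10479 genes measured in both (56.9%). Their median log2 ratio of HSC to LSEC was -0.93 in WT and 0.16 at 12 h. The rule for the class requires this ratio to rise from WT to 12 h. The WT values also took part in selecting these genes, so both comparisons only describe the class. For 21 genes of HSC alone the WT level in LSEC was over 20 times that in HSC. Tmem132e in HSC WT was at 0.494% of its LSEC level and Lbp at 0.641%. Both were above the median of 0.126% at which LSEC markers appeared in those libraries, and below the upper quartile of 2.30%. At 12 h they were at 8.84% and 6.23%, against a marker median of 0.135% and an upper quartile of 2.09%.

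Of 21 tested members of the NF-kB response list 17 rose in HSC and 7 in LSEC. Over all genes tested 15.2% rose in HSC and 7.98% in LSEC, and these shares are the background for every gene list here. The difference was called as higher in HSC for 4 (Nfkb1, Sod2, Tnfaip2 and Traf1) and lower for 1 (Tnfrsf1b, the second TNF receptor). Over all genes tested it was called as higher for 1.38% and lower for 1.5%. Its median over the list was 0.80 on the log2 scale against 0.03 over all genes tested. Tnfrsf1b averaged 448 CPM in HSC WT and 505 CPM at 12 h, and 0.822 and 2.54 CPM in LSEC (adjusted p of the difference 0.0388). This call was near the threshold and was not followed across the other settings, and whether HSC RNA in LSEC libraries had a part in it was not tested. Sod2, mitochondrial superoxide dismutase, had 90.1, 101, 103 and 94.1 CPM in HSC WT and 659, 435, 766 and 355 CPM at 12 h. Its LSEC libraries had 50.2, 59.7, 58.5 and 58.5 CPM and 78.9, 66.2, 79.6 and 64.3 CPM at 12 h, a response of 0.35 ± 0.18 that was not called (adjusted p = 0.223). The LSEC libraries at 12 h were nevertheless all above the LSEC WT range. The difference was 2.16 ± 0.26 (adjusted p = 0.00022). Nfkb1, which encodes the p105 and p50 subunit, went from 23.2–26.0 to 31.2–64.5 CPM in HSC and from 73.8–105 to 69.8–93.1 CPM in LSEC. Its call in the difference (adjusted p = 0.0236) was lost without HSC WT replicate 3 or LSEC WT replicate 1, and with the term shared by libraries of equal number and time (adjusted p = 0.0515). Traf1, a TNF receptor adaptor, was at 0, 0, 0 and 0.0323 CPM in HSC WT and 0.616, 0.241, 0.770 and 0.264 CPM at 12 h, under the 1 CPM that counts as measured, and at 3.32–5.05 and 3.27–9.23 CPM in LSEC. Its call was lost without any one of HSC WT replicates 1 to 3. Tnfaip3, the feedback deubiquitinase A20, was called in both cell types at 2.23 and 2.01, with a difference of 0.22 ± 0.49 that was not called (adjusted p = 0.9).

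Tlr2, a receptor for bacterial lipoproteins, went from 27.0, 17.5, 25.1 and 30.0 CPM to 247, 118, 151 and 99.3 CPM in HSC, with a difference of 2.26 ± 0.38 (adjusted p = 0.00315). In LSEC its ranges of 71.2–98.0 CPM and 78.0–146 CPM overlapped. Cxcl16, a chemokine of natural killer T and other CXCR6-bearing cells, went from 98.3, 111, 108 and 107 CPM in HSC WT to 399, 344, 561 and 353 CPM at 12 h. LSEC held it at 344, 330.2, 396 and 395 CPM in WT and 433, 431, 448 and 354 CPM at 12 h. HSC at 12 h thus reached the LSEC range, which had moved by 0.18 ± 0.14 (adjusted p = 0.423), and the difference was 1.78 ± 0.21 (adjusted p = 0.000145). Tapbpl, a chaperone of MHC class I loading, rose by 1.37 in HSC and was at 0.27 in LSEC (adjusted p = 0.205), and was the only one of 17 tested MHC class I genes with a called difference. Plat, the tissue plasminogen activator, rose from 4.75–8.46 to 36.2–52.2 CPM in HSC and was at 0.969–2.505 and 0.951–2.53 CPM in LSEC.

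A retinoid enzyme and a BMP ligand also rose in HSC alone. Rdh10, which oxidises retinol on the way to retinoic acid, went from 27.3, 23.8, 31.9 and 27.995 CPM to 138, 56.7, 152 and 56.7 CPM in HSC and was at 10.03–12.6 CPM in LSEC WT and 8.66–13.4 CPM in LSEC at 12 h. The difference was 1.86 ± 0.38 (adjusted p = 0.0141). Bmp2, a LSEC-rich ligand that drives hepcidin in hepatocytes, went from 211, 225, 252 and 227 CPM to 789, 436, 785 and 406 CPM in HSC. In LSEC it was at 2570.2, 3839, 1848 and 2557 CPM and 2778, 2753, 1629 and 3141 CPM at 12 h. Its difference of 1.47 ± 0.37 (adjusted p = 0.039) was close to the threshold, and the call was lost on leaving out any one of 12 of the 16 libraries, all but HSC 12 h replicates 2 and 4, LSEC WT replicate 3 and LSEC 12 h replicate 4. It was also lost with the term shared by libraries of equal number and time (adjusted p = 0.0738) and with a term for numbers 1 to 4 (adjusted p = 0.0556).

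In the list of sterol synthesis and LXR genes, 10 of 25 tested rose in HSC, and in LSEC 2 rose and 1 fell. The difference was called as higher in HSC for members that included the synthetic enzymes Cyp51 and Lss, the feedback protein Insig1 and the transcription factor Srebf2. Insig1 had 11.3, 9.96, 9.24 and 13.97 CPM in HSC WT and 20.1, 23.1, 20.3 and 16.3 CPM at 12 h, and 34.1, 56.8, 78.1 and 61.6 CPM in LSEC WT and 38.8, 39.8, 33.0 and 41.7 CPM at 12 h. All 4 HSC libraries at 12 h were above the HSC WT range, while LSEC WT replicate 1 lay inside the LSEC 12 h range. The difference was 1.43 ± 0.28 (adjusted p = 0.0103), with an LSEC response of -0.59 ± 0.20 just short of its call (adjusted p = 0.0557). Srebf2 lost its call without any one of 10 (HSC WT 1, 3 and 4, HSC 12 h 1 and 3, LSEC WT 2 to 4, LSEC 12 h 3 and 4).

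Fewer genes fell in HSC alone, and some of these are better known from endothelium. Tek, the angiopoietin receptor TIE2, went from 20.6, 39.4, 48.0 and 37.6 CPM to 9.06, 9.57, 8.12 and 9.56 CPM in HSC. LSEC libraries held 1258, 1335, 1145 and 1088 CPM in WT and 886, 912, 776 and 897 CPM at 12 h, a response of -0.48 ± 0.18 that was not called (adjusted p = 0.093). Every LSEC library at 12 h was nevertheless below every LSEC WT library. In HSC, Tek stood at 3.02% of its LSEC level in WT and 1.05% at 12 h, and the summed LSEC markers in the same libraries were at 3411 to 4613 CPM in WT and 2119 to 2604 CPM at 12 h. That sum includes Tek itself and markers with a high share in HSC, such as Gata4 at 33.1% of its LSEC level in WT. The median share of the LSEC markers in HSC did not fall, at 0.126% in WT and 0.135% at 12 h. Whether LSEC RNA in HSC libraries had a part in the fall of Tek was not tested. Esam, an endothelial adhesion molecule, was at 186–205 CPM in HSC WT and 95.8–149 CPM at 12 h, and at 922–1186 and 1217–1340.5 CPM in LSEC. The LSEC groups did not overlap, with a response of 0.28 that was not called (adjusted p = 0.185). The difference of Esam was -0.94 ± 0.19 (adjusted p = 0.0141). Tmem44, a transmembrane protein, fell from 10.1–12.4 to 0.654–3.82 CPM in HSC against 76.9–86.8 and 43.3–91.4 CPM in LSEC.

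**Figure D3:**
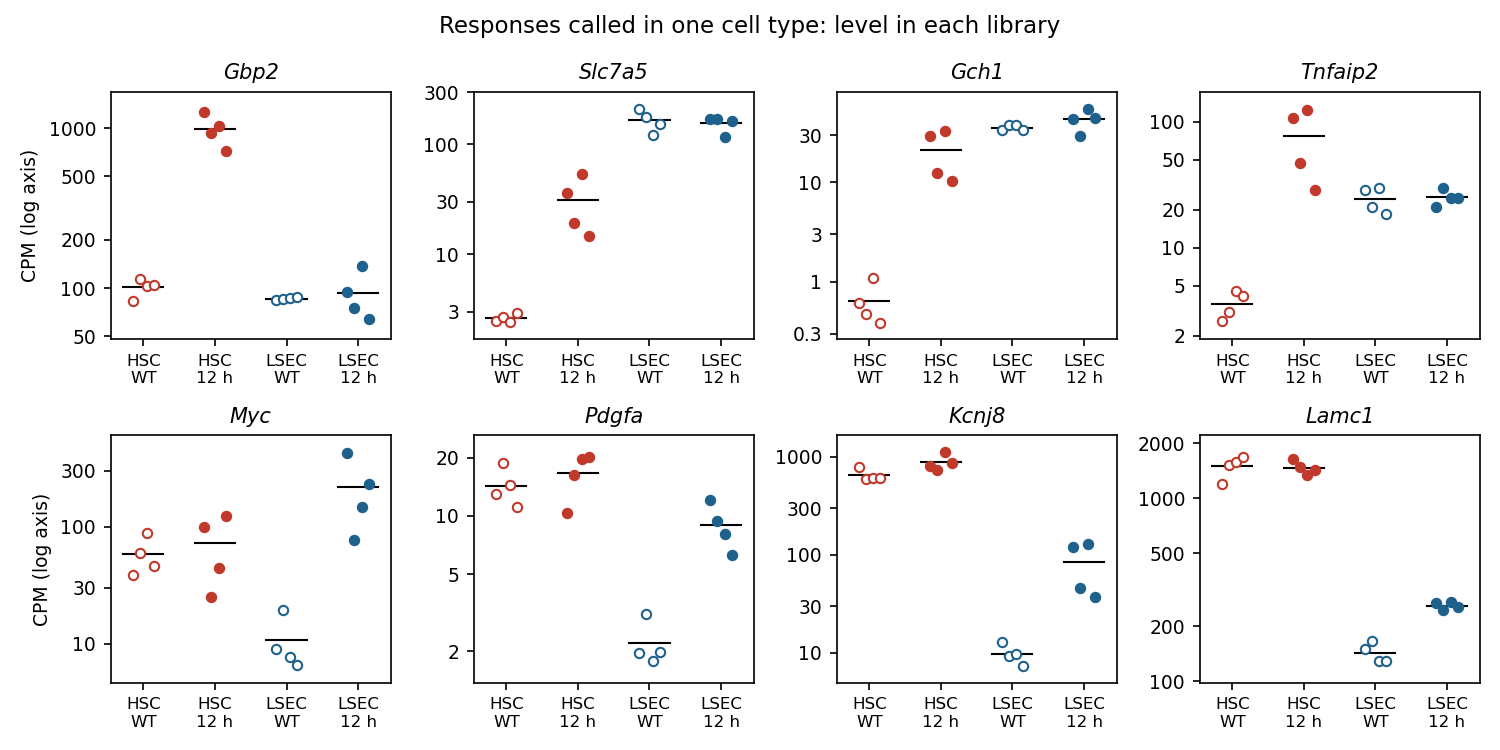
CPM (log axis) in each of the 16 libraries for 4 genes that changed in HSC alone (top row) and 4 that changed in LSEC alone (bottom row); open points are WT, filled points 12 h, bars are means. In the top row all red filled points lie above the red open points, up to 1265 CPM for Gbp2, and in the bottom row all blue filled points lie above the blue open points, up to 422 CPM for Myc.

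The genes of LSEC alone were 51 that rose and 16 that fell, led by Myc, a transcription factor of cell growth. Myc (chr15:61985341-61990361, mm10) went from 9.07, 19.6, 7.72 and 6.61 CPM in LSEC WT to 422, 76.6, 147 and 232 CPM at 12 h, with no overlap. HSC libraries held 38.6, 60.0, 88.1 and 46.2 CPM in WT and 98.8, 24.95, 44.1 and 124 CPM at 12 h, with 2 libraries above and 1 below the WT range. The LSEC response was 4.35 ± 0.59 (adjusted p = 0.000273), the HSC response 0.33 ± 0.51 (adjusted p = 0.672) and the difference -4.03 ± 0.75 (adjusted p = 0.00728). Myc was the only one of 22 tested immediate early genes with a called difference, and the list had 5 members up in HSC and 2 in LSEC, where 15.2% and 7.98% of all genes tested were up.

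Kcnj8 and Pdgfa also rose in LSEC alone, and both were higher in HSC than in LSEC in WT. Kcnj8, the pore subunit Kir6.1 of an ATP-sensitive potassium channel of mural cells, went from 12.9, 9.21, 9.79 and 7.34 CPM to 122, 46.1, 131 and 37.3 CPM in LSEC. HSC libraries held 793, 597, 611 and 606 CPM in WT and 813, 727, 1117 and 863 CPM at 12 h. Its LSEC level was 1.51% of the HSC level in WT and 9.54% at 12 h, against the stellate marker medians of 0.0370% and 0.0872%. Pdgfa (chr5:138976014-139000792), a growth factor for mesenchymal cells, had 1.95, 3.09, 1.78 and 1.97 CPM in LSEC WT and 12.1, 9.44, 8.12 and 6.32 CPM at 12 h. In HSC it had 13.01, 18.7, 14.5 and 11.2 CPM and 10.3, 16.3, 19.7 and 20.1 CPM at 12 h, which overlap. Its difference was -1.82 ± 0.35 (adjusted p = 0.00997).

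A growth factor, a basement membrane chain and a thrombin receptor were also in the class. Hgf, the hepatocyte growth factor, rose in LSEC from 123, 119, 36.3 and 79.9 CPM to 218, 163, 175 and 251 CPM. HSC libraries held it at 1306–1524 CPM in WT and 1044–1231 CPM at 12 h, without overlap, though it was not called there (adjusted p = 0.369). Its call in the difference (adjusted p = 0.0388) was lost on leaving out any one of 10 libraries, namely the 4 HSC WT libraries, HSC 12 h replicates 1 to 3, LSEC WT replicate 4 and LSEC 12 h replicates 1 and 4. Lamc1, the laminin gamma 1 chain, went from 150.1, 167, 129 and 128 CPM to 268, 244, 272 and 254 CPM in LSEC, with the 4 libraries at 12 h all above WT, and was at 1200.2–1689 and 1344–1636 CPM in HSC. F2r, the thrombin receptor PAR1, rose by 0.64 in LSEC (from 879.9–1154 to 1400.1–1955 CPM) and was at -0.34 in HSC (adjusted p = 0.0973).

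Among the remaining genes of LSEC alone, Steap2, a metalloreductase, rose from 4.55–12.6 to 20.4–70.1 CPM in LSEC and stood at 12.7–18.3 and 8.84–21.2 CPM in HSC. Acot7, an acyl-CoA thioesterase, went from 5.10, 8.66, 5.69 and 6.19 CPM to 20.1, 18.5, 21.3 and 17.8 CPM in LSEC and was at 15.6–19.8 and 17.6–24.8 CPM in HSC, so that LSEC at 12 h lay within the HSC range. Tes, a focal adhesion protein, rose by 1.60 ± 0.24 in LSEC (adjusted p = 0.000649) and was at -0.13 ± 0.24 in HSC (adjusted p = 0.715). The WT level was lower in HSC for 15 of the 51 genes that rose in LSEC alone (29.4%), against 56.9% of all genes measured in both. Their median log2 ratio of HSC to LSEC was 1.31 in WT and 0.10 at 12 h. Here the rule for the class requires the ratio to fall, and the WT values again took part in selecting the genes.

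Opposite responses ran mostly one way: 26 of the 36 genes fell in HSC and rose in LSEC, and 10 rose in HSC and fell in LSEC. Abcc9 (chr6:142587862-142702766, mm10), the SUR2 subunit that pairs with Kir6.1 and the neighbour of Kcnj8 (chr6:142564837-142571614), fell in HSC from 4782, 3725, 3152 and 3353 CPM to 2358, 2306, 931 and 1963 CPM. In LSEC it rose from 45.8, 56.5, 66.0 and 44.9 CPM to 202, 125, 508 and 273 CPM. The groups of each cell type did not overlap, and replicate 3 at 12 h was the lowest HSC and the highest LSEC library. The responses were -0.99 ± 0.35 (adjusted p = 0.0416) and 2.38 ± 0.36 (adjusted p = 0.000637), and the difference was -3.37 ± 0.50 (adjusted p = 0.00132). The LSEC level of Abcc9 was 1.42% of the HSC level in WT and 14.6% at 12 h.

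Nid2 (chr14:19751257-19811787), the basement membrane protein nidogen 2, went from 246, 353, 374 and 387 CPM to 164, 155, 107 and 158 CPM in HSC and from 16.4, 20.2, 12.2 and 13.9 CPM to 47.6, 45.7, 50.5 and 37.8 CPM in LSEC. All 4 libraries at 12 h lay below WT in HSC and above WT in LSEC, and the difference was -2.76 ± 0.26 (adjusted p = 2.88e-05). Adamts1 and Adamts5, proteases of versican and aggrecan encoded side by side on chr16, fell in HSC and rose in LSEC. Adamts1 had 1647, 1417, 1636 and 1630.4 CPM in HSC WT and 1089.9, 719, 748 and 780.4 CPM at 12 h. In LSEC it had 278, 470.3, 175 and 188 CPM and 1239, 385, 566 and 1008 CPM at 12 h, where the lowest library at 12 h lay below the highest WT library. Adamts5 went from 44.5–90.3 to 17.2–34.2 CPM in HSC and from 0.342–0.668 to 0.885–2.02 CPM in LSEC, 0.812% of the HSC level in WT and 5.49% at 12 h. They were the 2 lower calls among 24 tested matrix proteases and inhibitors, beside the 1 higher call of Plat.

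Cdh4, the adhesion protein R-cadherin, went from 36.9, 35.5, 30.1 and 29.2 CPM to 6.05, 7.81, 3.66 and 5.25 CPM in HSC. LSEC libraries went from 55.8, 45.3, 33.6 and 41.6 CPM to 52.6, 78.7, 83.3 and 109 CPM, where replicate 1 at 12 h lay inside the WT range. Its difference was -3.40 ± 0.32 (adjusted p = 2.88e-05), where the median SE over all genes tested was 0.27. Jam3, a junctional adhesion molecule, moved by -0.51 ± 0.09 in HSC (adjusted p = 0.000612) and 0.32 ± 0.09 in LSEC (adjusted p = 0.0297), small changes with tight libraries of 151–167 against 103–125 CPM and 15.1–17.6 against 19.6–21.1 CPM. Ackr1, the atypical chemokine receptor of venular endothelium, fell from 6.04–7.34 to 0.885–2.86 CPM in HSC and rose from 63.9–104 to 100.4–231 CPM in LSEC. Disp2, of the Dispatched family, fell in HSC from 806–1118 to 407–529.8 CPM and rose in LSEC from 11.1–21.6 to 27.2–55.9 CPM, and Dhh, the desert hedgehog ligand, went from 47.5–53.1 to 14.1–33.8 CPM and from 0.582–1.40 to 1.51–2.95 CPM.

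Some of the LSEC rises in this class were small beside the HSC level of the same gene. Nt5e, the ecto-nucleotidase CD73, went from 406, 421, 391.5 and 383 CPM to 96.1, 148, 133 and 148 CPM in HSC and from 0.822, 0.258, 0.477 and 0.208 CPM to 0.427, 0.774, 2.86 and 1.37 CPM in LSEC, where the groups overlapped. Cped1 fell from 485–722 to 147–369 CPM in HSC and went from 0.138–0.582 to 0.958–1.21 CPM in LSEC. As a share of the HSC level, LSEC held 0.1101% of Nt5e in WT and 1.03% at 12 h, and 0.0687% and 0.378% of Cped1. The stellate markers in the LSEC libraries went from a median of 0.0370% to 0.0872%, and their own median response in LSEC was 0.78 on the log2 scale, with 3 of 20 called as higher and 1 as lower. By library the median at 12 h was 0.0814%, 0.0324%, 0.181% and 0.0822%, against 0.0302% to 0.0408% in LSEC WT. Replicate 3, the highest of these, was also the highest LSEC library at 12 h for Nt5e, Abcc9, Kcnj8 and Nid2. For Adamts1, Pdgfa, Hgf and Cdh4 it was not. Whether stellate RNA in LSEC libraries had a part in these rises was not tested. Without genes whose WT level was under 1/20 of that in the other cell type, 22 opposite genes remained.

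Osmr (chr15:6813568-6874968), the oncostatin M receptor subunit, was one of the 10 genes that rose in HSC and fell in LSEC. It rose in HSC from 59.1, 79.0, 55.9 and 57.6 CPM to 273, 178, 258 and 161 CPM and fell in LSEC from 266, 214, 205 and 202 CPM to 190.2, 130.1, 144 and 123 CPM. The 4 libraries at 12 h lay above all WT libraries in HSC and below all WT libraries in LSEC, and the order of the 2 cell types turned over between WT and 12 h. The difference was 2.39 ± 0.26 (adjusted p = 0.000103), from an HSC response of 1.79 ± 0.19 (adjusted p = 1.08e-05) and an LSEC response of -0.59 ± 0.18 (adjusted p = 0.0416). Of 17 tested genes of the IL-6 family, STAT3 and SOCS list, 8 rose in HSC, and in LSEC 2 fell and 0 rose by edgeR's adjusted p (1 at an unadjusted p under 0.05, 0 by DESeq2). Over all 13194 genes tested, 2009 rose in LSEC at an unadjusted p under 0.05 and 1281 by DESeq2. The difference was called for Osmr and for Lifr, the receptor of leukemia inhibitory factor. For Lifr it was 0.71 ± 0.19 (adjusted p = 0.0499), at the threshold, and this call was not followed across the other settings. Ctsc, the lysosomal cathepsin C, rose from 235–248.9 to 336–679 CPM in HSC and fell from 2.98–9.31 to 2.004–3.54 CPM in LSEC.

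The C1q genes, which encode the 3 chains of the complement component and are macrophage genes in liver, had large negative differences. C1qb (chr4:136880126-136886200) went from 1.21, 1.99, 6.04 and 3.13 CPM to 0.0725, 0.172, 0.192 and 0.0378 CPM in HSC and from 7.70, 14.1, 12.7 and 20.1 CPM to 32.6, 19.2, 39.9 and 52.9 CPM in LSEC, where the highest WT library lay above the lowest at 12 h. The responses were -4.64 ± 0.64 (adjusted p = 0.000111) and 1.41 ± 0.39 (adjusted p = 0.0259), with a difference of -6.05 ± 0.76 (adjusted p = 0.000292). C1qa was at 0.402–4.09 CPM and 0–0.181 CPM in HSC, and at 2.40–6.89 CPM and 4.83–15.7 CPM in LSEC (adjusted p = 0.214). C1qc fell in HSC by 4.21 on the log2 scale and was at -0.04 in LSEC (adjusted p = 0.968). In the same LSEC libraries Vsig4 fell (adjusted p = 0.000145) and Cd5l fell (adjusted p = 0.000154), while Lyz2, a lysozyme of monocytes and macrophages, averaged 7.11 ± 2.14 CPM in WT and 10.1 ± 4.49 CPM at 12 h (adjusted p = 0.412). In HSC Lyz2 fell by 1.56 (adjusted p = 0.0113). Which cells carried the C1q transcripts was not tested.

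Of the 21 genes called in both cell types in the same direction with a called difference, 17 moved more in HSC and 4 more in LSEC. Metallothioneins, zinc-binding proteins induced by metals and by acute phase signals, were among them. Mt2 (chr8:94172618-94173567) went from 9.29, 14.6, 8.30 and 7.81 CPM to 274, 203, 247 and 168 CPM in HSC, and from 28.999, 40.8, 15.96 and 23.7 CPM to 90.1, 67.4, 50.5 and 64.2 CPM in LSEC. The fold of means was 22.3 in HSC and 2.49 in LSEC, the groups did not overlap in either, and the difference was 3.17 ± 0.38 (adjusted p = 0.000206). Mt1, its neighbour on chr8, went from 48.0, 76.1, 41.6 and 36.2 CPM to 471, 353, 635 and 423 CPM in HSC and from 176, 179.5, 87.3 and 129.8 CPM to 312, 317, 204 and 305 CPM in LSEC. Its difference was 2.23 ± 0.37 (adjusted p = 0.00295). For both genes LSEC WT was the higher of the WT groups and HSC 12 h the higher of the groups at 12 h. Ptgs1, cyclooxygenase 1, fell in both, from 30.2–54.8 to 9.24–14.3 CPM in HSC and from 467–565 to 288–426 CPM in LSEC, with a difference of -1.37 ± 0.26 (adjusted p = 0.00764).

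Serine protease inhibitors of the Serpina3 cluster on chr12 also rose more in HSC. These genes are near-identical copies, and how reads that fit several copies were counted is not given in the sources used here, so the values of single members are uncertain. Serpina3g had 44.3, 54.7, 49.0 and 41.2 CPM in HSC WT and 602, 309, 445 and 337 CPM at 12 h. LSEC libraries had 309, 414, 419.8 and 416 CPM in WT and 929, 518, 992 and 439 CPM at 12 h. The difference was 2.28 ± 0.36 (adjusted p = 0.00208). Serpina3f went from 17.2–27.3 to 205–679 CPM in HSC and from 119–187 to 195–433 CPM in LSEC, where it was not called (adjusted p = 0.0754), and Serpina3i from 0–0.290 to 3.48–11.3 CPM and from 7.74–10.3 to 20.4–48.1 CPM. Together with Lbp they were the 4 called differences among 24 tested acute phase genes, of which 19 rose in HSC and 13 in LSEC.

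The 3 cluster members are shown with the bases before their RefSeq starts on the plus strand of GRCm38.p6, up to the first annotated exon, to let their shared stretch be seen. Capitals mark matches to TTCNNNGAA, the core of a gamma-activated site (GAS, an element of cytokine-induced promoters), which is its own reverse complement. Of all 10056 windows of 300 bases 7.05% held such a match, and 7 of 72 (9.72%) of the genes that rose in HSC alone. The matches begin 121, 33 and 102 bases before the start used for Serpina3f, Serpina3g and Serpina3i, at chr12:104214294-104214543, chr12:104235897-104236146 and chr12:104262872-104263044. For Serpina3i the start used, 104263122, lies after the RefSeq gene start at 104263045, where the printed bases end. Its match is thus closer to the RefSeq gene start than 102 bases. These windows were chosen after the values and matches were seen.
Serpina3f: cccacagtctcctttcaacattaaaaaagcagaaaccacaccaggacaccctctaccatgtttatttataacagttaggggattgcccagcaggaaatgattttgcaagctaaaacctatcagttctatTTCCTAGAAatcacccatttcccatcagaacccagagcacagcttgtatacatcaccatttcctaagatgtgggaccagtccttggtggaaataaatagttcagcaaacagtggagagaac
Serpina3g: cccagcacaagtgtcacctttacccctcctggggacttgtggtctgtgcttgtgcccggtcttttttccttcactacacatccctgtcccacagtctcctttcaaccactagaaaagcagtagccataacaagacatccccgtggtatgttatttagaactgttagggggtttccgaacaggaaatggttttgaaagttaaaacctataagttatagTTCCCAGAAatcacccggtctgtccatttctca
Serpina3i: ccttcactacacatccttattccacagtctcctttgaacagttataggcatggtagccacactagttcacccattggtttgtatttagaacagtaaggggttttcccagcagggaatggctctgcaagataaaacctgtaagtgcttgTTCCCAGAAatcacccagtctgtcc
In each, the match is followed by the same letters ATCACCC. An NF-kB site, searched on both strands as GGGA, any 1 base, TTTCC, was in 0.418% of all windows and in 0 of the 72.

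**Figure D4:**
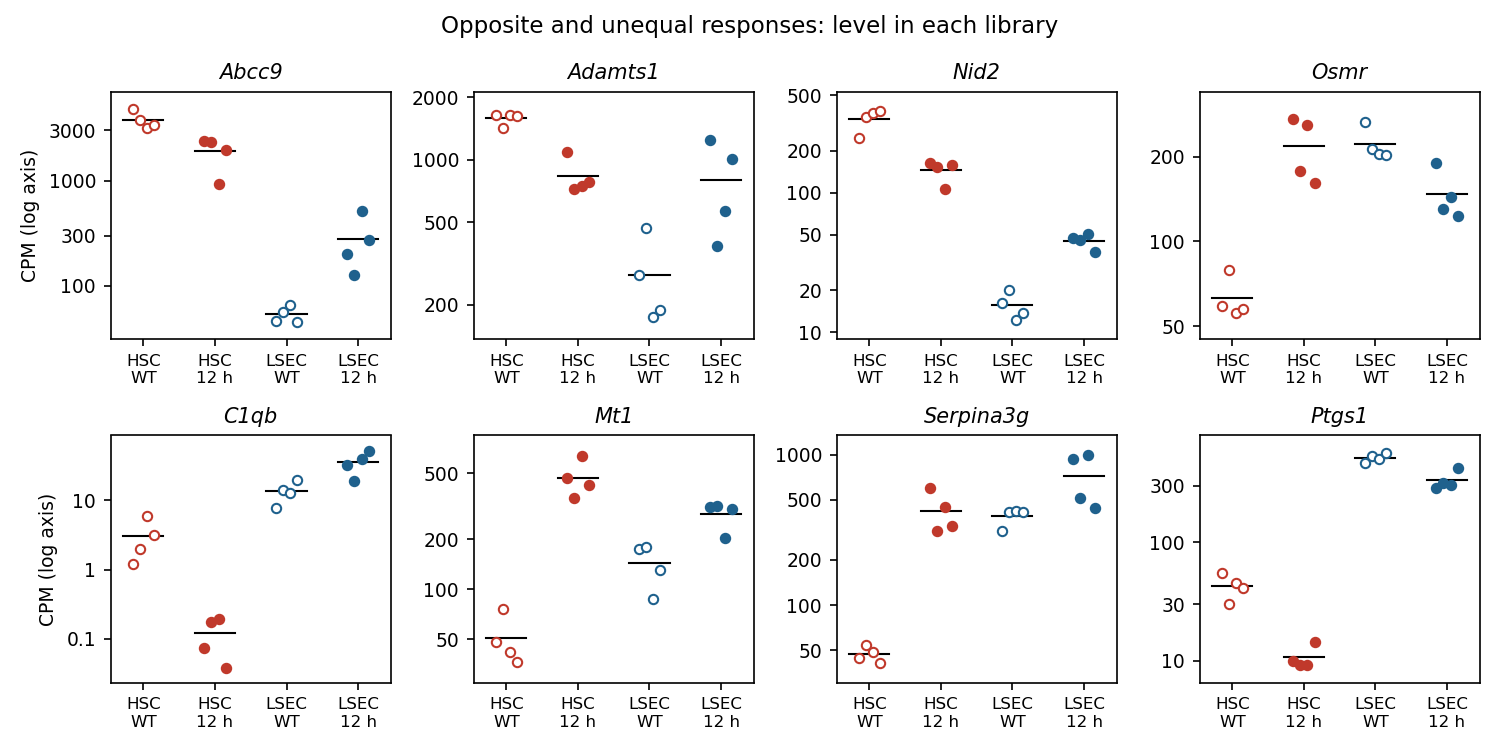
CPM (log axis) in each of the 16 libraries for 5 genes that moved in opposite directions (Abcc9, Adamts1, Nid2, Osmr, C1qb) and 3 that moved the same way by unequal amounts (Mt1, Serpina3g, Ptgs1); open points are WT, filled points 12 h, bars are means. The HSC and LSEC means move from WT in opposite directions for the first 5, as for Osmr with 161 to 273 CPM in HSC and 123 to 190 CPM in LSEC at 12 h. The LSEC points of Adamts1 and C1qb overlap between WT and 12 h.

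Of the 380 called differences 57 were in genes not measured in both cell types, and 37 measured in both met the rule for no class. In Sulf1, Sema3a and Cxcl12, which are among the 37, the cell type that was not called moved by 0.5 or more on the log2 scale. Sulf1, a heparan sulfatase, rose from 4.93, 2.86, 1.95 and 3.06 CPM to 36.1, 21.1, 37.1 and 16.2 CPM in HSC and was at 1.75, 1.51, 1.46 and 0.761 CPM and 1.12, 0.885, 0.269 and 0.380 CPM in LSEC, a response of -1.04 ± 0.44 (adjusted p = 0.129). The difference was 4.14 ± 0.58 (adjusted p = 0.000762). Sema3a, a repulsive guidance ligand, rose from 0.346–1.25 to 1.62–8.01 CPM in LSEC and was at 24.8–29.2 and 16.4–20.3 CPM in HSC (adjusted p = 0.191), with a difference of -3.14 ± 0.53 (adjusted p = 0.00324). Cxcl12, a chemokine that binds CXCR4, fell in HSC from 12194, 11118, 11291 and 12116 CPM to 4864, 5163, 4223 and 5948 CPM and was at 1.80–5.20 and 2.18–10.2 CPM in LSEC, which is 0.0317% of the HSC level in WT and 0.114% at 12 h. Its difference of -1.84 ± 0.48 (adjusted p = 0.0487) lost the call on leaving out any library but LSEC WT replicate 1 or LSEC 12 h replicate 2, with the term shared by libraries of equal number and time (adjusted p = 0.0679) and with that for numbers 1 to 4 (adjusted p = 0.0713).

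Other large responses were called in both cell types without a called difference. Csf1 (chr3:107741048-107760469), the macrophage growth factor, rose from 549, 593, 439 and 501 CPM to 1629.9, 1234, 901 and 1098 CPM in HSC and from 341, 319.6, 259 and 248 CPM to 822, 637, 759 and 511 CPM in LSEC. The difference had a 95% interval of -0.56 to 0.56 on the log2 scale (adjusted p = 1). Ccl2, a ligand of the monocyte receptor CCR2, went from 46.9–85.3 to 872–2004 CPM in HSC and from 0.753–1.55 to 20.8–149.7 CPM in LSEC. Its difference of -1.60 ± 0.72 had an interval of -3.12 to -0.08 and was not called (adjusted p = 0.296). Vcam1, a leukocyte adhesion molecule, rose in both, with a difference of 0.47 (interval -0.34 to 1.28, adjusted p = 0.632). Icam1, another, had 0.13 (interval -0.68 to 0.95, adjusted p = 0.93).

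Sele, the selectin E of activated endothelium, went from 1.34, 1.92, 0.936 and 0.839 CPM to 213, 75.3, 197 and 56.0 CPM in HSC and from 1.64, 2.36, 0.890 and 0.796 CPM to 135, 16.6, 31.1 and 24.2 CPM in LSEC. Its difference of 1.55 (interval -0.42 to 3.52, adjusted p = 0.473) became a call without LSEC 12 h replicate 1, the highest LSEC library, at 2.69 on the log2 scale. Cxcl10, an interferon-induced chemokine, had a difference of 0.55 (interval -0.97 to 2.07). Timp1, the metalloprotease inhibitor, rose in both from 1.54–3.22 to 101–199 CPM and from 0.342–0.540 to 7.62–22.1 CPM. Its difference of 1.30 (adjusted p = 0.299) was called without LSEC 12 h replicate 3, at 1.84, without replicate 3 of both cell types at 12 h, at 1.60, and with the term shared by libraries of equal number and time, at 1.43. For Lcn2 (interval -2.47 to 9.20) and Socs3 (interval -1.95 to 2.60) these libraries could not separate large differences from none. Dll4, the Notch ligand of endothelium, was called in neither cell type (0.18 and -0.22). Col1a1, a collagen of activated stellate cells, rose by 0.89 in HSC (adjusted p = 0.00765) and was under 1 CPM in all LSEC libraries, and its difference was called without LSEC WT replicate 2 or LSEC 12 h replicate 3, at 2.14 and 2.41, and by DESeq2 on all 16 libraries, at 1.86.

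Other gene lists placed these genes among their families. The 35 interferon-stimulated antiviral genes had 29 rises in HSC and 10 in LSEC, with medians of 1.22 and 0.75 on the log2 scale. Their median difference was 0.45 against 0.03 over all genes. By edgeR's adjusted p 0 of the 35 were called in the difference, 2 were under an unadjusted p of 0.05, and DESeq2 called 0. Over all 13194 genes tested, 380 (2.88%) were called by edgeR, 1999 (15.15%) had an unadjusted p under 0.05, and DESeq2 called 739. Beside these shares, 0 or 1 edgeR call in a list this short does not set the list apart, here or above. The 15 heat shock and chaperone genes had 11 rises in each cell type, with medians of 1.05 and 0.92, and 0 of them were called in the difference by edgeR, by DESeq2 or at an unadjusted p under 0.05. Hsp90aa1, a cytosolic chaperone, rose by 1.38 and 1.30. Of 19 tested macrophage niche ligands only Bmp2 was called in the difference by edgeR, a call lost with either replicate term, and DESeq2 called 2. Gas6, a ligand of macrophage TAM receptors, fell in both cell types (-0.73 and -1.18). Vascular growth factors and their receptors had 4 lower calls of 25 tested (Angpt2, Hgf, Pdgfa and Tek) and a median difference of -0.63. The circadian clock list, which bears on the time of day of sampling, had 2 rises and 1 fall among 18 in HSC and 1 rise in LSEC. In the difference 0 of the 18 were called by edgeR or DESeq2, and 2 had an unadjusted p under 0.05.

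**Figure D5:**
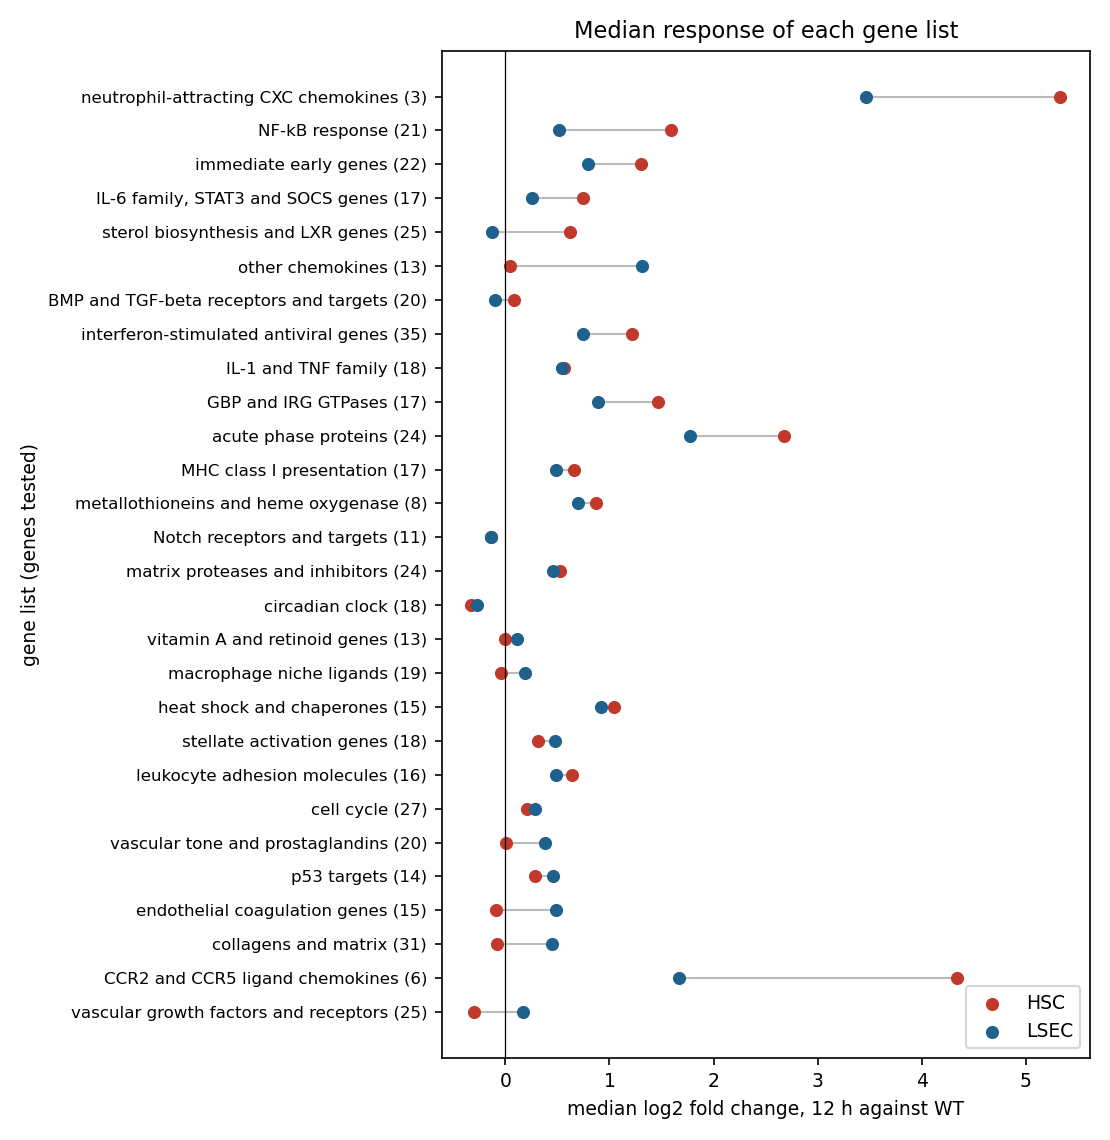
Median log2 fold change at 12 h over the tested genes of each of 28 lists in HSC (red) and LSEC (blue), ordered from top to bottom by the median difference of responses within the list. The NF-kB list stands at 1.59 in HSC and 0.51 in LSEC, the sterol list at 0.62 and -0.13, and the heat shock list at nearly the same value in both.

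At 36 h after DT few genes were called in either cell type. In a fit of the 24 HSC and LSEC libraries, 17 of the 13194 genes (0.129%) were called in HSC at 36 h and 2 (0.0152%) in LSEC. Of the 102 genes that rose in HSC alone at 12 h, 2 were called at 36 h in HSC, Gbp2 and the integrin subunit Itgb7. Gbp2 was at 1.30 on the log2 scale in HSC (adjusted p = 0.037) and 0.83 in LSEC (adjusted p = 0.185). Gch1 was at 1.95 in HSC at 36 h (adjusted p = 0.126), Sod2 at -0.03 (adjusted p = 0.999) and Osmr at 0.19 (adjusted p = 0.966). In LSEC, Myc was at 0.60 (adjusted p = 0.713), Kcnj8 at 0.56 (adjusted p = 0.609) and Abcc9 at 0.00 (adjusted p = 1). Both times share the WT libraries.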

How the data were processed

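Bulk RNA-seq libraries of HSC and LSEC were used as deposited, 1 table of whole-number read counts per gene symbol (24421 symbols) per library, with 5 lines of reads outside genes left out (4.90 to 7.43% of counts lay in no feature). Per the submitters' processing notes the authors used FastQC 0.11.4, Trimmomatic 0.35, TopHat2 2.1.0 and SAMtools 0.1.18 with mm10. How reads were assigned to genes, and whether by strand, is not given in the sources used here, so overlapping and antisense genes may share reads.

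The 16 libraries were fitted in R 4.3.3 with edgeR 4.0.16 (TMM scaling, filterByExpr by group with a minimum count of 10 and a minimum total of 15, glmQLFit and glmQLFTest, 4 group means, 12 residual degrees of freedom), with p-values adjusted by Benjamini-Hochberg over 13194 genes and called under 0.05. The standard error is the absolute log2 fold change divided by the square root of F. Groups were taken from the labels, and 0 pairs of replicates held identical counts. Intervals are 95%. Values at 36 h came from a fit of 24 libraries. Genes named were the 10 largest called differences each way, the 10 largest responses of each one-cell-type class, the 12 largest opposite ones (by the smaller response), up to 4 called members per gene list, fixed niche and inflammation genes and marker genes. The text preferred those that kept their call. Tnfaip3, Hsp90aa1, Gas6, Itgb7 and the Kupffer markers Vsig4, Cd5l, Timd4 and Clec4f were named after their values were seen. The members and lists were chosen with earlier results of these data known.

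Alternatives were DESeq2 1.42.0, RLE and within-cell scaling, no filter, blocks, all 36 libraries, other class limits and leaving out libraries. The scripts were tested on simulated data. Hepatocyte libraries were not used in the main comparison.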

Additional observations from a re-analysis of the deposited data

Results flagged for a closer look

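In 360 groups of 4 libraries looked at (genes described above or named by the same rule, and marker sums), 27 held a library far from the other 3, and chance gives about 1 in 20. In HSC these were Adamts1 at 1417 CPM in WT replicate 2 and 1089.9 CPM in 12 h replicate 1, Irf1 at 225 CPM in WT replicate 4, Kcnj8 at 793 CPM in WT replicate 1, and Osmr at 79.0 CPM in WT replicate 2. Lcn2 at 0.290 CPM and Traf1 at 0.0323 CPM stood apart in HSC WT replicate 4, Tapbpl at 107 CPM in HSC 12 h replicate 1, and Ptgs1 at 14.3 CPM in HSC 12 h replicate 4. Replicate 3 of HSC 12 h held 5 further genes or sums beside the hepatocyte markers at 896 CPM, namely Icam2 at 6.43 CPM, Nid2 at 107 CPM, Saa3 at 552 CPM, Trib3 at 8.78 CPM and the lymphocyte markers at 1.04 CPM. The cholangiocyte markers summed to 0.453 CPM in HSC 12 h replicate 4.

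In LSEC WT the single libraries were Cxcl10 at 82.8 CPM, Pdgfa at 3.09 CPM and Saa3 at 0.0368 CPM in replicate 2, and Serpina3g at 309 CPM and Sod2 at 50.2 CPM in replicate 1. In LSEC 12 h they were Irf1 at 745 CPM and Sele at 135 CPM in replicate 1, and Eva1a at 6.36 CPM, Mt1 at 204 CPM, Slc7a5 at 116 CPM and Timp1 at 22.1 CPM in replicate 3.

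The test of the difference between the cell types called 380 genes, 182 with the higher response in HSC and 198 with the lower.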

How the results depend on the processing

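The number of genes whose responses differed was 380, and it was 665 with a replicate block that gives HSC and LSEC libraries of equal number and time a shared term, 744 with DESeq2 and 229 with all 36 libraries in 1 fit. Under the same settings, genes of HSC alone numbered 309 (155 shared with the 162), 297 and 99. The count of genes of LSEC alone was 111 with DESeq2, 33 with 36 libraries and 35 without replicate 3 of both cell types at 12 h, an alternative chosen after seeing the data. Opposite genes numbered 62 with a replicate block for numbers 1 to 4 over all libraries, 56 with DESeq2, 19 with 36 libraries, 22 without genes under 1/20 of the other cell type's WT level and 18 without both replicates 3. Genes of unequal response in the same direction numbered 65 with the shared term, 32 with the number block, 51 with DESeq2 and 9 with 36 libraries. The share of differences with the higher response in HSC was 47.9%, 42.2% with RLE size factors and 41.1% with DESeq2.

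Leaving out 1 library at a time gave 236 to 407 differences, 2666 to 3825 genes in the HSC response, 1066 to 2208 in the LSEC response, 103 to 187 of HSC alone, 31 to 75 of LSEC alone, 22 to 40 opposite and 8 to 27 unequal. Of the genes followed singly, 4 changed sign in some setting, none of them called. Irf1 was at 0.065 with the shared term and 0.025 with the number block, and at -0.20 to 0.42 without single libraries. Csf1 was at 0.00070 with no filter on low counts, 0.19 without both replicates 3 and -0.17 to 0.14 without single libraries. Icam1 ranged from -0.075 to 0.57 and Socs3 from -0.58 to 1.01 without single libraries.

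Whether replicate numbers pair the libraries is not given. Deviations from the group means of same-numbered HSC and LSEC libraries correlated over 0.1 in 7 of 8 pairs (0.0313 to 0.367), and 6 of 8 HSC and 7 of 8 LSEC libraries correlated best with their own number, a hint from the data and not the design. On simulated counts at this depth, 28% of 2-fold and 86% of 4-fold differences were recovered, so smaller differences are often missed. Of the genes described singly, Bmp2 (1.39), Nfkb1 (1.05) and Cxcl12 (-1.76) lost the call with the shared-term block, Timp1 (1.43) gained one, and Bmp2 (1.46) and Cxcl12 (-1.79) lost it with the number block. The cause of the changes between settings was not tested.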
